A study of Mus musculus with 6 samples.

Results

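The Cyp2c genes of the mouse encode cytochrome P450 monooxygenases of the liver and a few other organs, and most of them lie side by side in a cluster on chromosome 19. They were chosen by gene symbol from a list of 10, after the strain difference of some of them was known. Of the 10, 9 had a probe set named here, each measured by 1 probe set, out of 18193 genes named on the array. Cyp2c40 was not analysed here, and no probe set was assigned to a listed Cyp2c gene together with another symbol. Cyp2c44 carries the symbol Cyp2c23 in the array table and in the reference annotation, and its probe set is of the shared-sequence kind (ending in _s_at). The other 8 probe sets have the plain ending. Whether they also take up RNA of a close paralogue was not tested. For all 9 it was also not tested whether sequence differences between the strains change binding to the probes.

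Total RNA of whole liver was hybridized to a 3' expression array, with 3 arrays of the strain BKS (C57BL/KS, called wild type in the titles) and 3 of NZO. All mice were males of 18 weeks kept on standard chow with a regular light cycle. NZO is an inbred strain prone to obesity and diabetes on such a diet, so strain and any disease come together in every comparison. The weight and glucose of these mice are not among the sample details used here. No treatment and no transgene is named in the labels. A whole-liver value cannot tell fewer cells of a type from less RNA per cell.

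Cytochromes P450 of the 2C family insert oxygen into drugs, steroids, bile acids and fatty acids. In liver they are known for turning arachidonic acid into epoxyeicosatrienoic acids, short-lived lipid signals that epoxide hydrolases then break down. They take their electrons from P450 oxidoreductase, and their transcription is set by liver factors such as HNF4A, the xenobiotic receptors CAR and PXR, and the sex-dependent rhythm of growth hormone.

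Values below are on the log2 scale, where a step of 1 is a doubling, and every difference is NZO minus BKS. Array medians were 5.08 to 5.22 and serve below as a mark of dim signal, though dimmer values occur. NZO replicate 1 stood apart. It was the lowest NZO array in 97.9% of the 2810 probe sets with a mean of at least 10, by a median of -1.03 from the mean of NZO replicates 2 and 3. The hybridization controls were also low on the arrays titled number 1, where they averaged 9.29 (BKS) and 8.17 (NZO). The remaining 4 arrays had 10.2 to 11.5. The 3' minus 5' signal of beta-actin, a sign of RNA truncation, ranged over 1.72 to 2.33 for BKS and 1.29 to 1.39 for NZO, without overlap. The 18S ribosomal RNA control was at 11.9 and 9.47 on BKS replicates 2 and 3. It was at 4.93 on BKS replicate 1 and at 5.11, 6.14 and 5.38 on NZO replicates 1 to 3. The part of RNA quality in the differences below was not tested. Differences are therefore also given within the pair of number 1 arrays and among the other 2 against 2 arrays. The 2 against 2 contrast holds both BKS arrays with the high 18S signal, so it is not free of array differences either.

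The Cyp2c genes differed between the strains in opposite directions. Cyp2c39 and Cyp2c38, which lie together, were 58.7-fold and 4.90-fold higher in NZO. Cyp2c37, further along the cluster, was 54.5-fold lower, and Cyp2c44 and Cyp2c55 were 5.77-fold and 3.04-fold lower. Cyp2c29, between Cyp2c55 and Cyp2c39, had nearly the same mean in both strains. The strains did not overlap for 7 of the 9 genes, 2 higher and 5 lower in NZO, against 6.83% of all 45037 probe sets higher, 8.49% lower and 15.3% in either direction. At an adjusted p below 0.05 (limma, Benjamini-Hochberg over all probe sets) 2 of the 9 passed, Cyp2c39 as higher and Cyp2c55 as lower, against 0.424% of all probe sets (0.191% higher and 0.233% lower). With the number 1 arrays as a block 6 of the 9 passed, against 2.97% of all probe sets, and among the 2 against 2 arrays 5 of the 9, against 2.65%. These counts describe genes chosen for this very contrast, so nothing is read from them and no p-value is given for a member. The median change of the 9 was -0.80, that of all probe sets 0.0012 and that of the probe sets with a mean of at least 10 -0.31.

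**Figure D1:**
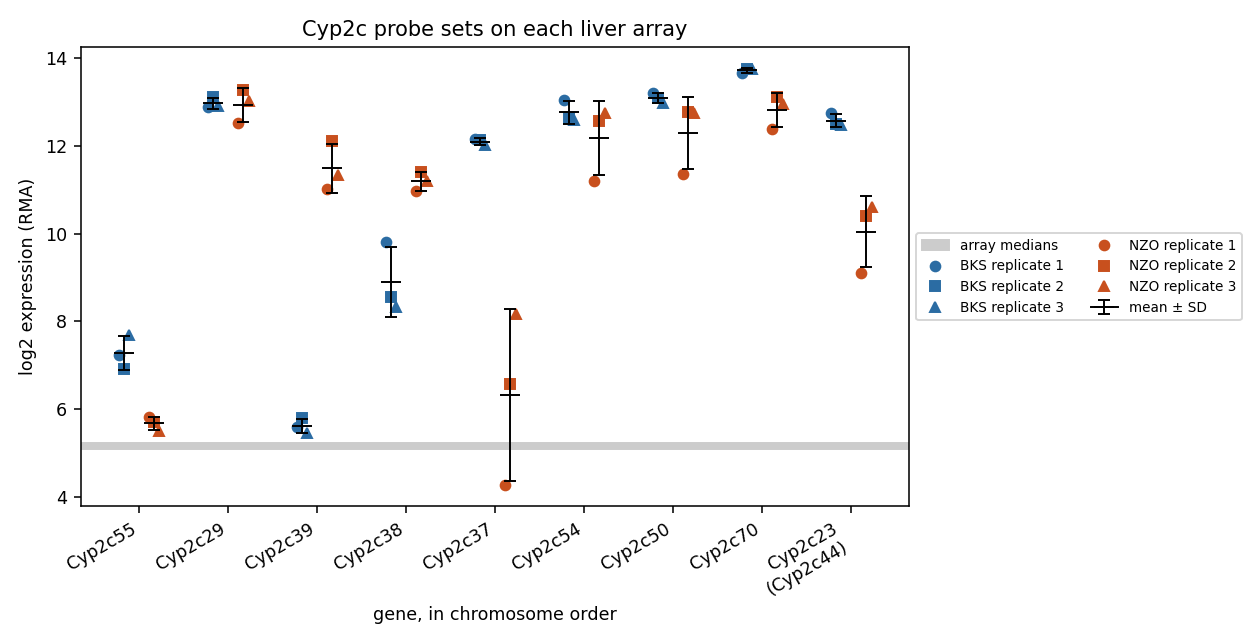
Log2 expression of the 9 Cyp2c probe sets on each array, with genes in chromosome order along the x axis, BKS in blue and NZO in orange, bars for mean ± SD (n = 3) and a grey band for the array medians (5.08 to 5.22). Cyp2c39 and Cyp2c38 are higher on every NZO array, while Cyp2c37 is at 12.1 in BKS on average and at 4.26 to 8.16 in NZO.

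Cyp2c39, which is known to hydroxylate retinoic acid as well as to epoxidize arachidonic acid, showed the clearest rise. Its values were 5.60, 5.79 and 5.46 in BKS replicates 1 to 3 and 11.02, 12.10 and 11.35 in NZO. All BKS values lay just above the array medians, and the lowest NZO value exceeded the highest BKS value by 5.23. The means were 5.61 ± 0.17 (SD, n = 3) and 11.49 ± 0.56, a log2 fold change of 5.87 ± 0.28. (SE) Its change ranked 2nd from the highest among 45037 probe sets. The difference was 5.42 between the number 1 arrays and 6.10 among the 2 against 2 arrays. Since the BKS level was close to the array medians, the size of the fold depends on low values.

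Cyp2c38, an arachidonic acid epoxygenase, was higher in NZO as well, from a brighter BKS level. It stood at 9.82, 8.56 and 8.32 in BKS and at 10.98, 11.41 and 11.19 in NZO. The strains were separated by 1.16, and here the BKS arrays were the scattered ones, with BKS replicate 1 closest to NZO. The means were 8.90 ± 0.80 and 11.19 ± 0.21 (SD, n = 3), a log2 fold change of 2.29 ± 0.38. (SE) It was 1.16 between the number 1 arrays and 2.86 among the 2 against 2 arrays, so the size of the Cyp2c38 difference followed which BKS arrays were used.

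Cyp2c37, which is known to hydroxylate arachidonic acid, was the mirror image of Cyp2c39 in size. Its values were 12.15, 12.13 and 12.02 in BKS and 4.26, 6.56 and 8.16 in NZO. BKS spanned 0.14 and NZO 3.90, so the NZO arrays differed among themselves by far more than the BKS arrays, and all 3 still lay at least 3.85 below BKS. The means were 12.10 ± 0.07 and 6.33 ± 1.96 (SD, n = 3), a log2 fold change of -5.77 ± 0.87. (SE) It ranked 2nd from the lowest of all probe sets. The difference was -7.89 between the number 1 arrays, where NZO replicate 1 lay below the array medians, and -4.71 among the 2 against 2 arrays. That is 237-fold and 26.2-fold, so the size of the Cyp2c37 difference depends strongly on which NZO arrays are used. Without NZO replicate 1 it was -4.73 and without NZO replicate 3 it was -6.69. Cyp2c37 did not pass over the 6 arrays or without any 1 BKS array, NZO replicate 2 or NZO replicate 3. It passed without NZO replicate 1, with the number 1 arrays as a block and when each gene had 1 probe set, where 0.742% of 18193 genes passed.

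The genes on the far side of Cyp2c37 had lower NZO means too, by much less. Cyp2c54 and Cyp2c50, close relatives of Cyp2c37 that are known to oxidize arachidonic and linoleic acid, follow it on the chromosome, and Cyp2c70 closes the cluster. Cyp2c54 was at 13.05, 12.64 and 12.59 in BKS and 11.20, 12.56 and 12.75 in NZO, so the strains overlapped. Cyp2c50 was at 13.20, 13.09 and 12.98 in BKS and 11.36, 12.77 and 12.75 in NZO, with a gap of 0.21. In both genes NZO replicate 1 was the low one. The log2 fold changes were -0.59 (standard error 0.40) for Cyp2c54 and -0.80 (standard error 0.38) for Cyp2c50. Among the 2 against 2 arrays they were 0.04 and -0.27, and without NZO replicate 1 they were -0.10 and -0.33, so the low NZO mean of Cyp2c54 rested on that array.

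Cyp2c70, the enzyme that makes muricholic acids, the bile acids particular to mice and rats, stood at 13.66, 13.75 and 13.75 in BKS and at 12.39, 13.11 and 12.95 in NZO. The strains were separated by 0.55, a gap wider than the BKS range of 0.089 and narrower than the NZO range of 0.73. The means were 13.72 ± 0.05 and 12.82 ± 0.38 (SD, n = 3), a log2 fold change of -0.90 ± 0.20. (SE) It was -1.28 between the number 1 arrays and -0.72 among the 2 against 2 arrays.

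Cyp2c55 opens the cluster and Cyp2c44 lies apart from it on the same chromosome. Cyp2c55, best known from the large intestine and from induction by xenobiotic receptors, was at 7.22, 6.93 and 7.69 in BKS and 5.81, 5.70 and 5.51 in NZO. It was the member in which NZO replicate 1 was the highest of its strain. The means were 7.28 ± 0.39 and 5.68 ± 0.15 (SD, n = 3), a log2 fold change of -1.61 ± 0.22. (SE) The NZO level lay close to the array medians, and the difference was -1.41 between the number 1 arrays and -1.70 among the 2 against 2 arrays. With any single array left out Cyp2c55 kept its direction and did not pass the test, at -1.78 to -1.40.

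Cyp2c44, an epoxygenase studied mainly for arachidonic acid epoxides in blood vessels and kidney, stood at 12.74, 12.50 and 12.47 in BKS and at 9.11, 10.41 and 10.61 in NZO. Every NZO value lay at least 1.86 below every BKS value. The means were 12.57 ± 0.15 and 10.04 ± 0.82 (SD, n = 3), a log2 fold change of -2.53 ± 0.38. (SE) It was -3.63 between the number 1 arrays and -1.97 among the 2 against 2 arrays. It did not pass over the 6 arrays or with any single array left out other than NZO replicate 1, and it passed without that array (log2 fold change -2.06).

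Cyp2c29, an abundant liver enzyme that makes arachidonic acid epoxides, was at 12.89, 13.12 and 12.91 in BKS and at 12.51, 13.28 and 13.02 in NZO. The NZO values lay on both sides of those of BKS. The means were 12.97 ± 0.13 and 12.93 ± 0.39 (SD, n = 3), a log2 fold change of -0.04 ± 0.21. (SE) The sign turned to 0.25 with repeated quantile normalization and to 0.34 with cyclic loess.

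NZO replicate 1 was the lowest NZO array for 8 of the 9 Cyp2c genes, Cyp2c39 and Cyp2c38 included. Its median gap to the other NZO arrays was -0.70 over the 9 genes, beside -1.03 over the probe sets with a mean of at least 10. Over all probe sets it was the lowest NZO array in 47.2%. Its part in the Cyp2c differences was not tested beyond leaving it out.

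**Figure D2:**
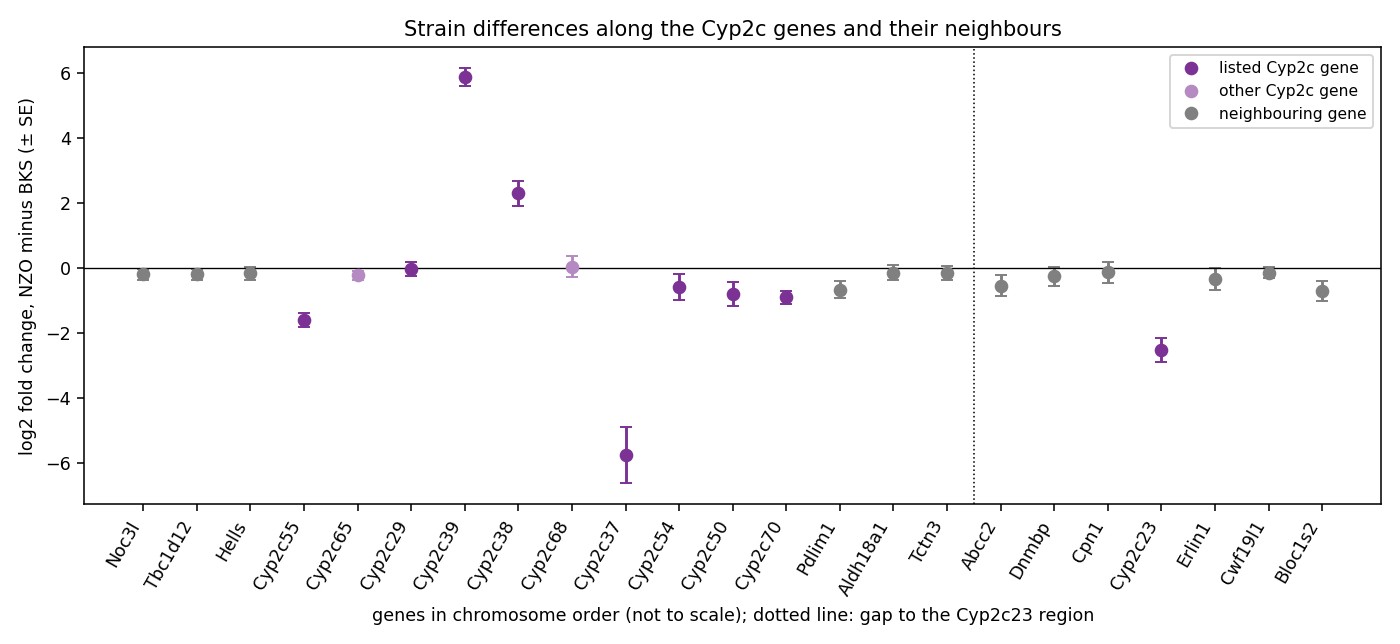
Log2 fold change (NZO minus BKS, ± SE) of the measured Cyp2c genes and of the nearest 3 measured genes on either side, in the order of the reference annotation and not to scale. Cyp2c39 (5.87) and Cyp2c37 (-5.77) stand at opposite ends, and the 12 flanking genes lie between -0.71 and -0.14.

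The genes around the cluster were read in the order of the annotation GRCm38.p6. Among the measured Cyp2c genes, Cyp2c55 comes first along the chromosome, then Cyp2c65 and Cyp2c29. Cyp2c39 with Cyp2c38 inside its annotated span, Cyp2c68, Cyp2c37, Cyp2c54, Cyp2c50 and Cyp2c70 follow in that order. Cyp2c66, just before Cyp2c29, and Cyp2c67, Cyp2c40 and Cyp2c69, between Cyp2c38 and Cyp2c37, were not analysed here. Cyp2c68, between Cyp2c38 and Cyp2c37, was at 12.41 ± 0.21 in BKS and 12.45 ± 0.64 in NZO (log2 fold change 0.04, standard error 0.32, limma adjusted p = 0.984). Cyp2c65 was below the array medians in both strains, at 3.90 and 3.67 (-0.23, standard error 0.14, limma adjusted p = 0.665). The measured genes before the cluster, Noc3l, Tbc1d12 and Hells, were at -0.20, -0.20 and -0.17. Those after it, Pdlim1, Aldh18a1 and Tctn3, were at -0.67, -0.15 and -0.15. Around Cyp2c44, Abcc2, Dnmbp and Cpn1 on the near side were at -0.55, -0.26 and -0.14, and Erlin1, Cwf19l1 and Bloc1s2 on the far side at -0.35, -0.15 and -0.71. None of these 12 flanking genes passed the limma test, 1 had an unadjusted p below 0.05, and 2 passed as lower with the number 1 arrays as a block (Pdlim1 and Bloc1s2). Over all 45037 probe sets 4532 had an unadjusted p below 0.05 (limma), and 2.97% passed with the block.

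Start regions are shown for Cyp2c39, Cyp2c38 and Cyp2c37 and the listed regions most like them, to set like sequences beside unlike expression changes. They come from RefSeq, build GRCm38.p6, a reference of the strain C57BL/6J, and run from 250 bases before to 50 bases after each annotated start. A start region was listed for 8 of the 10 genes (not for Cyp2c44 or Cyp2c54), with 2 starts for Cyp2c39, which makes 9 regions. Each region is 300 bases long and given 5′ to 3′ on the gene's own strand. Capitals mark matches on either strand to TTCNNNGAA (the STAT5 site), TGTTTAC (a FOXA site), CAAAGTCCA (an HNF4A site), AGGTCA (the half-site of nuclear receptors) or TATAAA (the TATA box).

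Among the listed regions those of Cyp2c37 and Cyp2c50 were the most alike, with 264 identical bases, or 88.0% of 300 in a global alignment. The median over the 36 pairs was 57.2%, and Cyp2c54 could not be compared. In expression the pair stood at -5.77 and -0.80.
Cyp2c37 (chr19:39992174-39992473, plus strand): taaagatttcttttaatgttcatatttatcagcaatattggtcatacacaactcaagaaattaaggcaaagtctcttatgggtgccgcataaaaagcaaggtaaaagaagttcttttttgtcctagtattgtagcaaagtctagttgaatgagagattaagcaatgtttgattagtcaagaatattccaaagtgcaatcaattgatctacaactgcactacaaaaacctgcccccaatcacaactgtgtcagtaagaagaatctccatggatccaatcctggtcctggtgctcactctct
Cyp2c50 (chr19:40089429-40089728, plus strand): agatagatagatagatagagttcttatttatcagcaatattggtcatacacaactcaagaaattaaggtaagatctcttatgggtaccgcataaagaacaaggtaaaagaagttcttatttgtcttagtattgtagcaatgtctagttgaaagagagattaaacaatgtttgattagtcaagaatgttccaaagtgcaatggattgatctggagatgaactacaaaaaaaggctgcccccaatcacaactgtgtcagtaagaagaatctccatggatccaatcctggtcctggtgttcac

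Neither region holds any of the 5 motifs. Cyp2c39, Cyp2c38 and Cyp2c29 form the other close group. The first start of Cyp2c39 shares 82.0% with Cyp2c38 and 79.0% with Cyp2c29, and the second start shares 79.7% and 74.3%. The expression changes of Cyp2c39, Cyp2c38 and Cyp2c29 were 5.87, 2.29 and -0.04.
Cyp2c39, first listed start (chr19:39347096-39347395, plus strand): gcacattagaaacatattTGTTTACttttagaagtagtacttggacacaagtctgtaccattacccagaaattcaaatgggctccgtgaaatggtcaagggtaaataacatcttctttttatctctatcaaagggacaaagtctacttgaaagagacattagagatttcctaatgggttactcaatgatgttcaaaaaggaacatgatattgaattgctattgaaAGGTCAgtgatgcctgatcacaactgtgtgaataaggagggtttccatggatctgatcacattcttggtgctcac
Cyp2c39, second listed start (chr19:39510572-39510871, plus strand): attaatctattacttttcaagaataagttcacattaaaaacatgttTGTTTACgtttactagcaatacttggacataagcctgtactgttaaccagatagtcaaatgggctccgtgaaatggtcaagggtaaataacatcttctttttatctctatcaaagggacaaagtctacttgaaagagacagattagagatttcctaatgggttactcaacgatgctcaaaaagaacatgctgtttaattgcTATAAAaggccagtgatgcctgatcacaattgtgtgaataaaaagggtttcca
Cyp2c38 (chr19:39463026-39463325, minus strand): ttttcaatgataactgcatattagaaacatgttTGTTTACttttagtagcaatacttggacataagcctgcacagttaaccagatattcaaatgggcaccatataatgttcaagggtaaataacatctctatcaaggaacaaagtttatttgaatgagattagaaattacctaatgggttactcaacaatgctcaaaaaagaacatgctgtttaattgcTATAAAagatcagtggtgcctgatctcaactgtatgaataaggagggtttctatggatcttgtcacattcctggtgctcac
Cyp2c29 (chr19:39286835-39287134, plus strand): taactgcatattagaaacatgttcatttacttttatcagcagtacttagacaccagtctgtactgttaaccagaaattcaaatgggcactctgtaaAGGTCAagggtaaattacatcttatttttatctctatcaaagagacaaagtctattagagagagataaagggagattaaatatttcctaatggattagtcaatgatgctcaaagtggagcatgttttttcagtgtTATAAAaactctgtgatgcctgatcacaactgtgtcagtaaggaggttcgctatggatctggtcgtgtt

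The FOXA letters occurred in both Cyp2c39 regions and in that of Cyp2c38, 3 of the 9 regions, and in 3.65% of the 32851 regions of that length. They were not found in the region of Cyp2c29. The nuclear receptor half-site was in 3 of 9 (Cyp2c29, the first start of Cyp2c39 and Cyp2c70) and in 16.3% of all. The HNF4A letters were in 2 of 9 (Cyp2c40 and Cyp2c70) and in 0.475% of all, the TATA box in 6 of 9 and 13.6%, and the STAT5 site in 0 of 9 and 8.30%. A match describes these letters only, in the sequence of another strain.

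No gene of the Cyp2j, electron donor, epoxide hydrolase or arachidonate lists below passed in the unblocked fit of the 6 arrays. With the number 1 arrays as a block, 4 of them passed, against 2.97% of all probe sets. These were Cyb5r1 and Pla2g12a as lower, and Lta4h (lower) and Hpgd (higher) of the cyclooxygenase and lipoxygenase routes. Beside the unadjusted counts of these lists, 4532 of all 45037 probe sets had an unadjusted p below 0.05 (limma). The Cyp2j genes, the other epoxygenase family, had 5 measured members with a median of 0.07, and none passed, with 0 at an unadjusted p below 0.05 (limma). None passed with the block either. The 2 with the smallest p were Cyp2j11 at 0.25 (adjusted p = 0.832) and Cyp2j6 at -0.17 (adjusted p = 0.883). Among 4 electron donors none passed, 1 had an unadjusted p below 0.05, and the median was -0.27. Cyb5r1, a cytochrome b5 reductase, was at -1.14 (limma adjusted p = 0.114) and Cyb5b at -0.36 (limma adjusted p = 0.744). P450 oxidoreductase was not analysed here.

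None of the 4 epoxide hydrolases passed, and 1 had an unadjusted p below 0.05. Ephx1, the microsomal enzyme, was at 12.16, 12.33 and 12.24 in BKS and 12.26, 13.22 and 13.18 in NZO (log2 fold change 0.64, limma adjusted p = 0.485). Ephx2, the soluble enzyme that clears the arachidonic acid epoxides, was at 12.97, 13.02 and 12.96 in BKS and 11.85, 12.86 and 12.96 in NZO (-0.43, limma adjusted p = 0.720). In Ephx2 only NZO replicate 1 stood clearly below BKS, and the difference among the 2 against 2 arrays was -0.08. Of 11 genes in the list for arachidonic acid release and re-esterification none passed, with 2 at an unadjusted p below 0.05 (median -0.05). Pla2g7, a secreted phospholipase, was at 1.19 (limma adjusted p = 0.304) and Pla2g12a at -0.86 (limma adjusted p = 0.434). The Pla2g7 means were 4.35 in BKS and 5.54 in NZO, around the array medians. Of 12 genes of the cyclooxygenase and lipoxygenase routes none passed, with 3 at an unadjusted p below 0.05 (median 0.22). The prostaglandin-degrading Hpgd was at 1.93 (limma adjusted p = 0.0887) and the leukotriene enzyme Lta4h at -0.94 (limma adjusted p = 0.161).

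Among 22 transcription factors known to act on liver P450 genes, 1 fell, none rose and 21 did not pass, with a median of -0.42 and 3 members above 0. Beside this and the list medians below, all probe sets with a mean of at least 10 had a median of -0.31. With cyclic loess that median was 0.0099. Foxa1, a pioneer factor of hepatocytes, was at 10.07, 10.77 and 9.93 in BKS, against 8.52, 8.03 and 8.13 in NZO. The strains did not overlap, and the log2 fold change was -2.03 (standard error 0.25, limma adjusted p = 0.0316). Foxa1 did not pass without any 1 of the BKS arrays or without NZO replicate 2 or 3, nor with repeated quantile normalization or cyclic loess (limma adjusted p from 0.0642 to 0.165 in these 7), while its log2 fold change stayed between -2.27 and -1.75 over all alternatives. Its limma adjusted p was as low as 0.00782 in the others. With the block a second factor of the list, Foxa2, was lower as well (-0.94).

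Targets of CAR and PXR, a family of drug-inducible genes, had 16 measured members. None passed, 4 had an unadjusted p below 0.05, 3 were lower with the block (Gstm2, Gstm3 and the carboxylesterase Ces2a), and the median was -0.35. In this list 6 members were above 0. The 2 with the smallest p were the glutathione transferases Gstm3 at -1.80 (limma adjusted p = 0.0716) and Gstm2 at -2.28 (limma adjusted p = 0.137). Several Cyp2c genes are known to differ between the sexes, so sex-biased liver genes were counted in these males too. Of 12 male-biased genes none passed, 7 had an unadjusted p below 0.05, 7 were lower with the number 1 arrays as a block, and the median was -0.999. Among these male-biased genes 8 were lower without overlap of the strains, against 8.49% of all probe sets. Over all 45037 probe sets 4532 had an unadjusted p below 0.05 (limma), and 2.97% passed with the block. The P450 Cyp2d9 was at -1.25 (limma adjusted p = 0.0554) and the steroid dehydrogenase Hsd3b5 at -1.44 (limma adjusted p = 0.0591). Of 16 female-biased genes 1 rose, the fatty acid hydroxylase Cyp4a14 (6.61, standard error 0.52, limma adjusted p = 0.00632), none fell, and the median was 0.20. In that list 5 had an unadjusted p below 0.05 and 5 were higher without overlap of the strains, against 6.83% of all probe sets. With the block 2 were higher (Cyp4a14 and Acot3) and 1 lower (Cyp17a1). Leaving out BKS replicate 2, BKS replicate 3 or NZO replicate 3 ended the call for Cyp4a14, with limma adjusted p from 2.07e-05 to 0.0764 over all alternatives.

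Some Cyp2c enzymes are known to be concentrated around the central vein, so zonation genes were read beside them. Of 14 pericentral genes none passed, 3 had an unadjusted p below 0.05 and the median was -0.33, with 1 higher (Rhbg) and 2 lower (Slc1a2 and Cyp1a2) with the block. Slc1a2 was at -0.84 (limma adjusted p = 0.217) and Cyp1a2 at -1.62 (limma adjusted p = 0.244). Of 12 periportal genes none passed, 2 had an unadjusted p below 0.05 and the median was -0.16, with 1 lower with the block (Cdh1). Cdh1 was at -2.77 (limma adjusted p = 0.137) and Ass1 at 1.07 (limma adjusted p = 0.311). The Ass1 probe set was dim, with means of 5.25 in BKS, close to the array medians, and 6.33 in NZO. Among 60 other cytochrome P450 genes 1 passed, Cyp4a14 again, 14 had an unadjusted p below 0.05, and 16 did not overlap between the strains (median -0.11). With the number 1 arrays as a block 10 of these 60 passed. Over all 45037 probe sets 0.424% passed, 4532 had an unadjusted p below 0.05 (limma) and 15.3% did not overlap. With the block 2.97% of all probe sets passed.

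**Figure D3:**
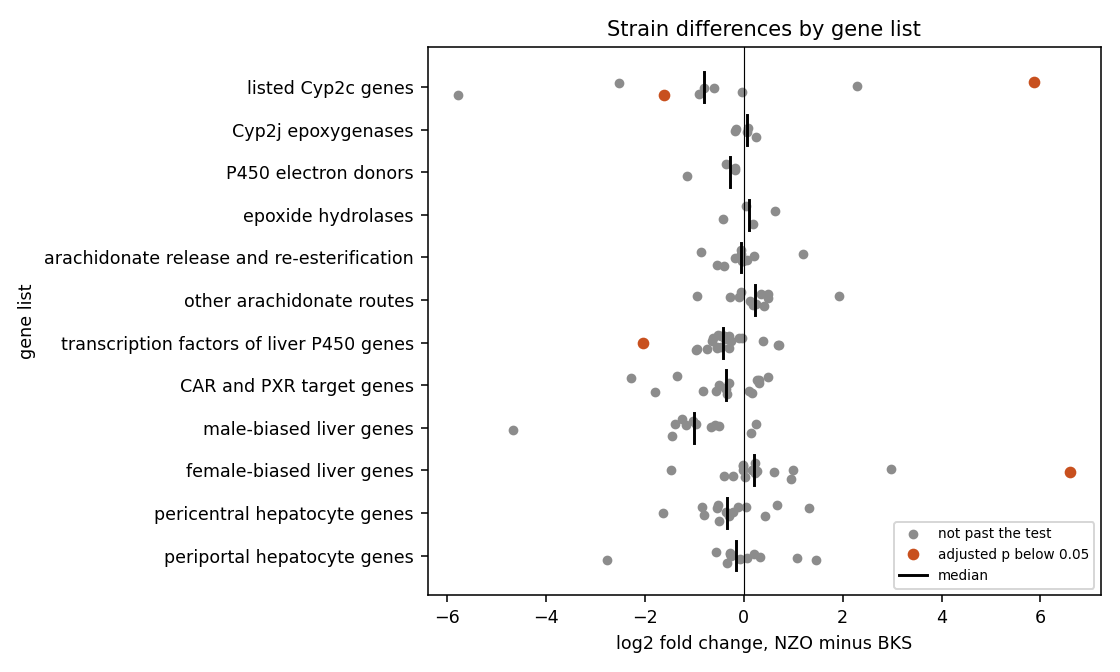
Log2 fold change (NZO minus BKS) of each measured gene, by list, with a black line for the list's median and orange points for an adjusted p below 0.05. The Cyp2c genes spread from -5.77 to 5.87, and outside them 2 of the plotted genes passed, Foxa1 (-2.03) and Cyp4a14 (6.61).

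The 8 hepatocyte markers had a mean level of 13.9 on each BKS array and of 13.1 to 14.1 in NZO. None passed, with 0 at an unadjusted p below 0.05 (limma), and the smallest p values were those of Hnf4a at -0.39 (adjusted p = 0.631) and Apoa1 at -0.52 (adjusted p = 0.672). All 8 markers of sinusoidal endothelium were above 0, with a median of 0.47. Their mean level was 6.65 to 6.98 in BKS and 7.08 to 7.77 in NZO without overlap, and none passed. Of these 8 markers 3 had an unadjusted p below 0.05 (limma), against 4532 of all 45037 probe sets. Pecam1 was at 0.71 (limma adjusted p = 0.140) and Fcgr2b at 0.77 (limma adjusted p = 0.241). The part of these cells in the Cyp2c values was not tested. The mean level of the other lists overlapped between the strains for Kupffer cells (6.95 to 7.83 and 7.09 to 7.88), stellate cells (7.14 to 7.70 and 7.003 to 7.548) and adipocytes (7.15 to 7.30 and 7.08 to 7.27). The lymphocyte means also overlapped (5.45 to 5.57 and 5.55 to 6.33), and the cholangiocyte mean was barely higher in NZO (5.383 to 5.444 and 5.445 to 5.709). In both, NZO replicate 1 held the high value of a single marker. Cd8a of T cells was at 9.55 on that array against 6.41 and 6.70 on the other NZO arrays, and the epithelial marker Epcam at 9.78 against 7.07 and 7.29. Both of these probe sets end in _x_at rather than the plain ending, and whether they take up other RNA was not tested. The other markers of both lists showed no such jump. Cd3e was at 7.19 on NZO replicate 1 against 6.38 and 6.68, and Cd3g at 4.28 against 4.30 and 4.49. Krt19 was at 5.88 against 6.45 and 5.86. The part of lymphocytes and cholangiocytes was not tested either. No marker gene passed, and Pecam1 was the 1 marker that passed with the block.

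The genes most alike to each of the extremes over the 6 arrays were sought among 9578 genes, as a description in which all points share the strain split. For Cyp2c39 they were Fhit (Pearson r = 0.998), Prelid2 (0.995), the muscle gene Myom2 (0.994), the aldehyde oxidase Aox3 (0.994) and the kinase Vrk2 (0.994). For Cyp2c37 they were the polyadenylation factor Cpsf1 (0.996), Wfdc21 (0.995), the transcription factors Pou6f1 (0.993) and Nfix (0.993), and Snapc2 (0.993). Wfdc21 also shared the wide NZO spread of Cyp2c37, at 7.23, 9.68 and 10.16 in NZO against 13.48, 13.65 and 13.51 in BKS. The companions of Cyp2c39 changed by less, from 1.11 for Fhit to 4.49 for Myom2.

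**Figure D4:**
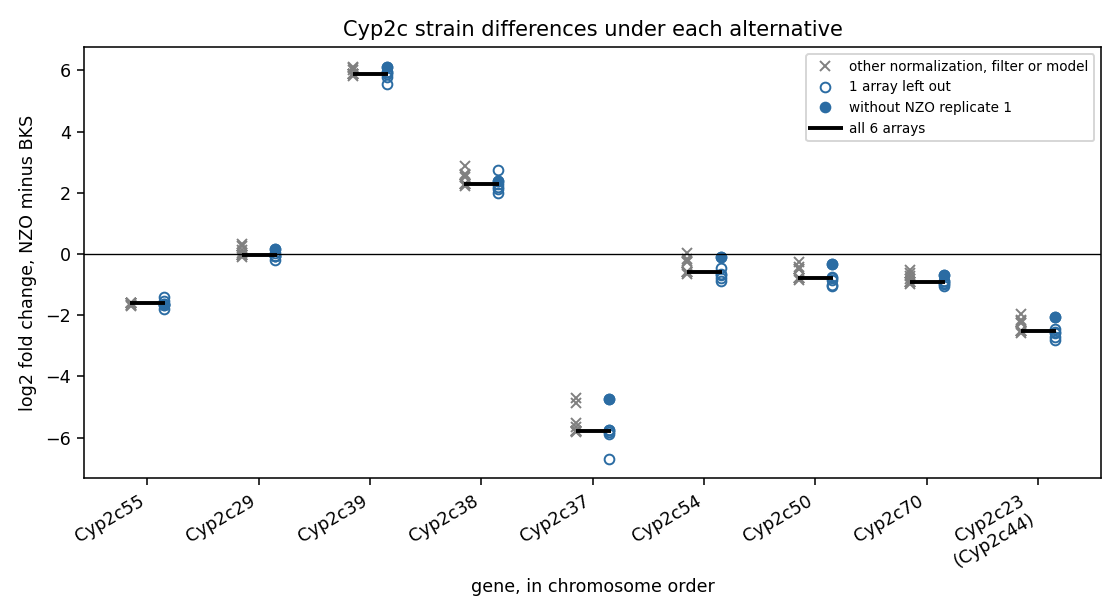
Log2 fold change of each Cyp2c gene with all 6 arrays (black bar), with 1 array left out (circles, filled without NZO replicate 1) and with another normalization, filter or model (crosses). Cyp2c39, Cyp2c38, Cyp2c37, Cyp2c44 and Cyp2c55 keep their sign throughout, and Cyp2c29 (-0.21 to 0.34) and Cyp2c54 (-0.88 to 0.04) cross 0.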

How the data were processed

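Per the submitters' processing notes, the authors deposited log2 expression values per probe set, made with RMA in Affymetrix Expression Console (background correction, quantile normalization and probe set summary). Versions are not given in the sources used here. The values carry no detection call, and precision is limited by how many arrays there are. Strain labels assigned the arrays, with replicate numbers given in accession order as names. Where the labels do not say that each array is a separate animal, p-values measure only the spread between these samples.

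Of 45101 probe sets, 64 controls were left out and 45037 tested with limma 3.58.1 in R 4.3.3 (lmFit, eBayes, two-sided, Benjamini-Hochberg over all). Probe sets were named from the platform annotation, with 34945 carrying 1 symbol, 932 several and 9160 not listed, and symbols were updated through gene identifiers to GRCm38.p6. A gene of a list was represented by its brightest probe set. Start regions were aligned with Biopython 1.88. Figures used matplotlib 3.10.9 in Python 3.11.15. The fit was tested on simulated data with equal spread in both strains and no shift of a whole array. That simulation does not cover an array that stands apart, as NZO replicate 1 does here.

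The Cyp2c members and all lists were chosen with earlier results of these data known. All Cyp2c probe sets were named, with up to 4 passing genes of each list or the 2 with the smallest p, the nearest 3 genes on each side, and the 5 genes most correlated with Cyp2c39 and Cyp2c37 (mean of at least 6 in a strain, no predicted genes). Alternatives covered normalization, dim probe sets, 1 probe set per gene, variance model, array weights, a block for the arrays titled number 1 (a grouping read from the titles and the low hybridization controls, which no label calls a batch), single arrays and a fold threshold.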

Additional observations from a re-analysis of the deposited data

How the results depend on the processing

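No paired analysis was possible because the strains share fewer than 2 replicate numbers in the titles. Over all probe sets 191 passed with the 6 arrays, 2 of them Cyp2c and 2 from the other gene lists. These 3 counts were 604, 4 and 12 with repeated quantile normalization, 584, 5 and 17 with cyclic loess, 298, 5 and 10 among probe sets with a mean of at least 6 in 1 strain or more, 373, 5 and 8 with a trended robust variance, 829, 6 and 19 with array weights, 1336, 6 and 24 with the number 1 arrays as a block, and 1192, 5 and 32 among the 2 against 2 arrays. With 1 probe set per gene, 4 Cyp2c genes and 5 list genes passed (135 genes in all). With 1 array left out the counts ran from 26 to 272, from 1 to 3 and from 0 to 9. The 0 came without BKS replicate 2 or 3 or NZO replicate 3, where 29, 32 and 34 list genes had an unadjusted p below 0.05 (limma). Median centring and a further minimum of 1 for the log2 fold change gave counts within 1.5 times. The cause was not tested.

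Cyp2c29 turned from -0.04 to 0.25 with repeated quantile normalization, 0.34 with cyclic loess, 0.016 with array weights and 0.13 among the 2 against 2 arrays, and ran from -0.21 to 0.17 with 1 array left out. Cyp2c54 turned from -0.59 to 0.0415 among the 2 against 2 arrays. The other 7 Cyp2c genes kept their direction in all 15 alternatives that gave a fold change. Cyp2c39 passed in all 15, and Cyp2c37, Cyp2c44 and Cyp2c55 in 9 each. Cyp2c38 passed in 7, Cyp2c70 in 2 and Cyp2c50, Cyp2c54 and Cyp2c29 in 0. Of all probe sets or genes tested, from 26 to 1336 passed in the same alternatives. The Cyp2c tallies again describe genes chosen for this contrast, so nothing is read from them. The median change of probe sets with a mean of at least 10 was -0.31 with the deposited values and 0.0099 with cyclic loess, and that of the Cyp2c genes -0.80 and -0.43. Values near the array medians, such as Cyp2c39 in BKS and Cyp2c37 in NZO replicate 1, limit the precision of the largest folds.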
